A study of Mus musculus with 17 samples.

Results

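Tmem38b, Lars2 and Rn18s-rs5 are 3 of the 49585 genes listed in the cell-free RNA (cfRNA) tables of mouse plasma. They were selected on the measured values: each held above 5% of the gene counts of at least 1 library, and each was considered for reads that may come from ribosomal RNA (rRNA), the main RNA of cells. The plasma came from C57BL/6J wild-type mice at 13 weeks of age, kept on the International Space Station in microgravity (MG, 6 mice) or on a rotating platform under Artificial-1G (AG, 6 mice), or on the ground (GC, 5 mice). Each of the 17 libraries was made from 1 mouse with a small RNA kit, which the labels put down to degraded RNA, so short RNAs and fragments of longer ones were read. Plasma RNA comes from many tissues, and in such a bulk sample more releasing cells and more RNA released per cell cannot be told apart.

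Ribosomes are built of rRNA and protein. In the cytosol the 18S rRNA belongs to the small subunit, the 28S, 5.8S and 5S rRNAs belong to the large subunit, and the mitochondrial ribosome has its own pair, the 12S rRNA of mt-Rnr1 and the 16S rRNA of mt-Rnr2. The 5S genes are transcribed by RNA polymerase III and have many near-identical copies across the genome, whereas the 18S, 5.8S and 28S rRNAs are cut from one precursor made by RNA polymerase I. Tmem38b encodes TRIC-B, a potassium channel of the endoplasmic reticulum that balances charge when calcium is released. Lars2 encodes the mitochondrial leucyl-tRNA synthetase, which loads leucine onto its tRNA. Rn18s-rs5 is named as a sequence related to the 18S rRNA gene.

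The annotation places rRNA or a shared sequence inside or beside each of the 3 genes. Tmem38b lies on the plus strand of chromosome 4 (53826045 to 53862019, GRCm38, the assembly also called mm10). The 5S rRNA gene n-R5s185 lies wholly within the last of its 6 exons, on the same strand (chr4:53860652-53860770). In the Tmem38b transcript that holds it, of 2862 bases, it covers bases 1495 to 1613 in the 3′ untranslated region, with no difference over its 119 bases. The length that the deposited RPKM values imply for Tmem38b was 3807 bases, the merged exon length in GENCODE M21, so this exon was part of the counted gene. The 5S gene with the highest median RPKM, n-R5s194 on chromosome 3, differed from the stretch in Tmem38b at 9 bases and shared an unbroken run of 70 bases with it. The same run was found in 40 of 352 rRNA transcripts in the annotation. These were the genes named as 5S and the rRNA genes with a Gm name, whose kind of rRNA was not checked. The sequences are shown because they set apart the copy within Tmem38b from the 5S gene with the highest median RPKM. The first line gives bases 1 to 79 of n-R5s194 (chr3:4338998-4339076, plus strand), and the second gives 30 bases of the Tmem38b exon (chr4:53860672-53860701, plus strand) that stand opposite bases 21 to 50 of the first. Capitals mark bases that differ between the 5S copies.
n-R5s194: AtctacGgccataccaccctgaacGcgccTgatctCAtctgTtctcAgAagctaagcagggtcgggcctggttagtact
Tmem38b: gaacAcgccCgatctTGtctgAtctcTgGa

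Counted from the first base of the 5S gene, with the base of n-R5s194 first, the differences were A1G, G7A, G25A, T30C, C36T, A37G, T42A, A47T and A49G. All 9 lay before base 50, and none lay in the shared run from base 50 to 119. A read that falls within the run fits both copies.

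Lars2 lies on the plus strand of chromosome 9 (123366927 to 123462666, GRCm38). None of its 9 transcripts matched a gene of type rRNA in a search against 364 transcripts of rRNA genes and related loci. A single match was found, in the 3′ untranslated region, to Gm15564, a gene annotated as antisense RNA on the minus strand of chromosome 16 (35966752 to 35983230). It ran over 72 bases (chr9:123462048-123462119, bases 3278 to 3349 of a Lars2 transcript of 3894 bases) with an identity of 98.6%. The 30 bases around the only difference are shown, since they lie in the single stretch of Lars2 that matched in this search, which did not cover other genes. The first line is from Lars2 (chr9:123462085-123462114, plus strand) and the second from Gm15564 (chr16:35981730-35981759, minus strand), with the differing base in capitals, T16A when counted from the first printed base of Gm15564.
Lars2: ggaacgtgagctgggAttagaccgtcgtga
Gm15564: ggaacgtgagctgggTttagaccgtcgtga

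The 28S sequence was not used here, so the Lars2 stretch was not compared with it. The length implied for Lars2 was 7828 bases, against 11089 bases of merged exons in GENCODE M21, so the deposited annotation of this gene differed from the one used for the search.

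Rn18s-rs5 is given in RefSeq as a pseudogene on chromosome 17 that has Gm42418 as a synonym. The deposited annotation lists Gm42418 as a separate gene, at a count and an RPKM of 0 in every library. The values used here are those of the entry Rn18s-rs5. Its implied length was 714 bases, equal to that of a CT010467.1 transcript in GENCODE M21, which has 4 exons, the type pseudogene and lies on the minus strand (chr17:39848103-39848827). The files give neither an identifier nor coordinates, so this assignment rests on length alone. The last 97 bases of this transcript lie inside the other transcript of CT010467.1, of type rRNA and 1849 bases long (chr17:39846353-39848201, minus strand). The last 120 bases are shown because they hold the part of that transcript annotated as rRNA (chr17:39848103-39848224, with an intron left out), with the part inside the rRNA transcript in capitals. Gm42418 is annotated on the plus strand of the same region (chr17:39846958-39848788), so the printed bases run opposite to it, and they were not compared with an 18S sequence of another locus.
CT010467.1: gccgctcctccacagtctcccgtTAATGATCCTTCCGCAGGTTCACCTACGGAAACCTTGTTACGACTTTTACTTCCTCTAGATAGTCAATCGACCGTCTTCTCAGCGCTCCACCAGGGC

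**Figure D1:**
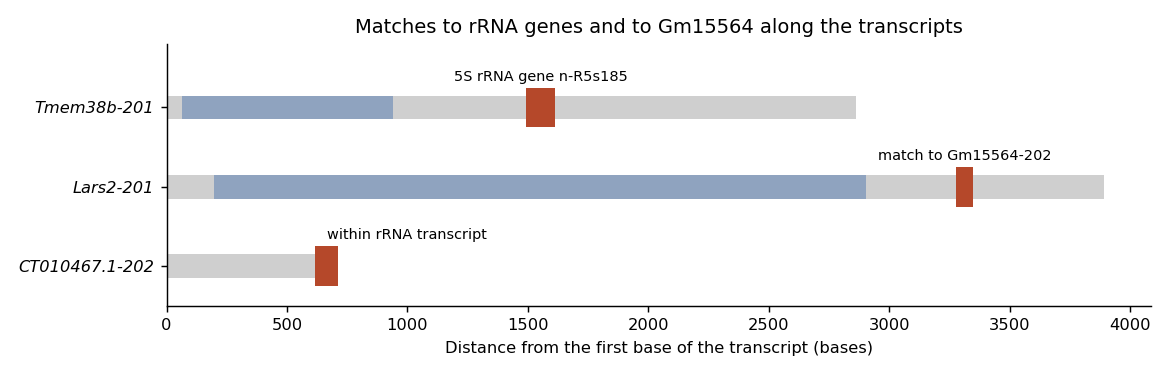
Position of the matches along the transcripts, in bases from the first base. Grey bars are whole transcripts, blue bars the coding parts, and red boxes the 5S gene n-R5s185 (bases 1495 to 1613 of the Tmem38b transcript), the match to Gm15564 (bases 3278 to 3349 of the Lars2 transcript) and the last 97 bases of the CT010467.1 transcript inside the rRNA transcript. In Tmem38b and Lars2 the matches lie behind the coding part.

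The deposited files hold reads per gene and no read positions, so the part of each gene's count that falls on these stretches was not measured. The gene counts summed to between 84657 and 277682 per library, which was 1.19% to 5.78% of the mapped reads implied by the RPKM values, and the 3 genes took 61.8% to 83.3% of the counts. All shares given here are of these sums. The sums leave out genes with a count of 0 and an RPKM above 0, mt-Rnr1 and mt-Rnr2 among them. The RPKM of mt-Rnr2 implied 51476 reads in MG 2, beside a count sum of 115872. In AG 5 it implied 2569, beside 115515. The gene Polr2m was the remaining gene above 5% of a library and matched no rRNA transcript. Just inside the threshold lay Lars2, above 5% in 2 of 17 libraries, at 5.22% in MG 1 and 6.16% in GC 1. Just outside it lay Gas5, which hosts small nucleolar RNAs, with 4.96% of MG 6 at most. Tmem38b and Rn18s-rs5 were above 5% in all 17 libraries. That the shares were high is what chose the genes and is no result. Tmem38b and Rn18s-rs5 passed in every library, so the difference between groups played no part in their choice, and it was tested.

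Tmem38b took 56.1% of the counts in its lowest AG library, 63.0% at the median and 74.4% in the highest. In MG the lowest, median and highest shares were 42.4%, 50.6% and 63.7%. The GC libraries held 24.7%, 54.2%, 55.8%, 64.6% and 56.4%. The first GC library stood far below the others, and the ranges of the 3 groups overlapped. With the SD over the 6, 6 and 5 mice, the mean share of Tmem38b was 64.3% ± 8.45 in AG, 52.3% ± 9.23 in MG and 51.2% ± 15.3 in GC. On the log2 scale MG lay below AG, with a difference of -0.31 (exact two-sided permutation test, p = 0.0476, unadjusted). This was 1 of the share comparisons tested for Tmem38b and Rn18s-rs5 in each pair of the 3 groups. The exact Mann-Whitney test on the same shares gave p = 0.0649. The call was lost in 7 of the 12 fits that left out 1 library, among them MG 1 (difference -0.25) and MG 2 (-0.26). AG and GC differed by 0.39 (exact p = 0.0779), and by 0.15 without GC 1 (exact p = 0.171). MG and GC differed by 0.087 (exact p = 0.823), and without GC 1 the difference turned to -0.16.

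Lars2 held much smaller shares. In AG they were 1.83%, 2.14% and 4.74% for the lowest, median and highest library, and in MG 1.80%, 4.25% and 5.22%. In GC they were 6.16%, 4.19%, 4.26%, 1.80% and 4.07%. Most AG libraries lay near the bottom of the range, with AG 1 apart from the others, and the groups overlapped. Lars2 averaged 2.65% ± 1.10 in AG, 3.93% ± 1.28 in MG and 4.10% ± 1.55 in the GC mice (SD). The log2 difference was 0.57 for MG against AG, -0.037 for MG against GC and -0.61 for AG against GC. Lars2 was chosen through its share in an MG and a GC library and never passed 5% in AG, so its differences between groups are a description on every scale and no test of them is given. Without AG 1 they were 0.76 for MG against AG and -0.79 for AG against GC.

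Rn18s-rs5 had shares of 6.45%, 15.1% and 19.6% for the lowest, median and highest AG library. The corresponding MG values were 9.95%, 13.8% and 18.9%. In GC the 5 libraries held 30.9%, 13.3%, 12.8%, 11.3% and 13.8%. GC 1 was the highest of all 17 libraries, and the other GC libraries lay inside the ranges of AG and MG. The mean share of Rn18s-rs5 was 13.8% ± 5.51 in AG, 14.5% ± 3.27 in MG and 16.4% ± 8.15 in the GC mice (SD). Between MG and AG the log2 difference was 0.16 (exact permutation p = 0.613), between MG and GC -0.10 (exact p = 0.749) and between AG and GC -0.26 (exact p = 0.498). Without GC 1 the last 2 became 0.15 and -0.0031.

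For shares of counts, none of the 3 genes had groups that did not overlap in any pair. Among the 272 genes kept by the expression filter, the shares did not overlap for 3.31% in MG against AG, 0.368% in MG against GC and 3.31% in AG against GC.

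**Figure D2:**
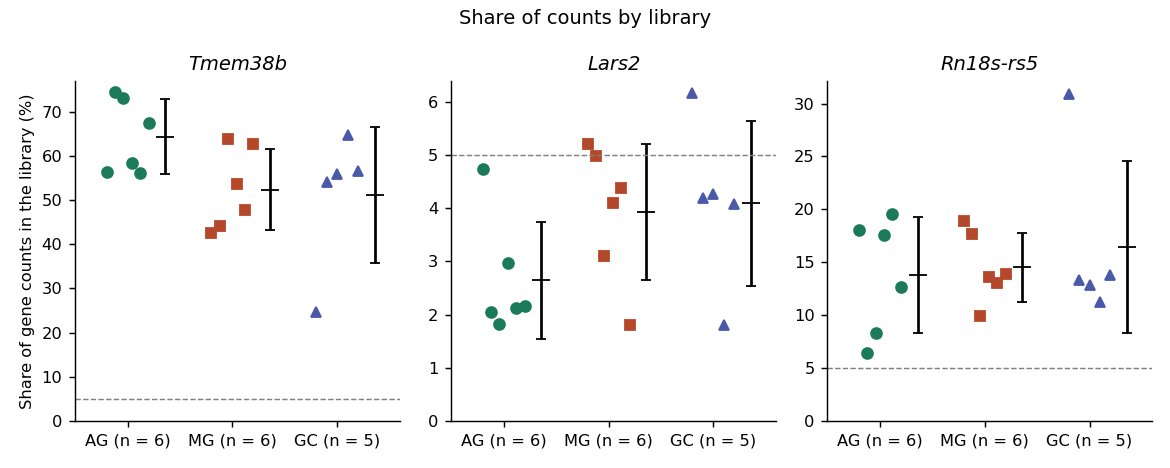
Share of the gene counts of each library (%, y axis) taken by the 3 genes in AG, MG and GC. Each point is 1 library, the black bar is the mean with its SD, and the dashed line is the 5% threshold. GC 1 stands apart, with 24.7% for Tmem38b and 30.9% for Rn18s-rs5.

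The shares add up within a library, so a gene that takes more leaves less for the others. Over the 272 genes the median log2 difference of shares was 1.34 for MG against AG, with 242 genes higher in MG, and it was -1.16 for AG against GC and 0.094 for MG against GC. The 3 genes were therefore also set against the summed counts of the genes that never passed 5% of a library. Tmem38b had 4.28 to 7.94 reads for each read of those genes in AG (median 6.43), 1.62 to 3.87 in MG (median 2.05) and 1.07 to 3.83 in GC (median 2.77). Every AG library lay above every MG and every GC library. The log2 difference was -1.47 for MG against AG (exact permutation p = 0.00216, the smallest that 6 against 6 allow) and 1.39 for AG against GC (exact p = 0.00433, the smallest that 6 against 5 allow). Between MG and GC the difference was -0.082 (exact p = 0.835). Such ratios did not overlap for 1.84% of the 272 genes in MG against AG, 0.368% in MG against GC and 2.94% in AG against GC. Polr2m, set against the genes that never passed 5%, had a ratio of 0.480 to 1.53 in AG and 0.107 to 0.410 in MG, also without overlap. In GC its ratio was 0.228 to 0.660, which overlapped with AG.

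The ratio of Lars2 to the same genes was 0.178 to 0.361 in AG and 0.0922 to 0.216 in MG, with overlap. The log2 difference of the means between MG and AG was -0.59 by this measure, where that of the share was 0.57. For Rn18s-rs5 the ratio was 0.559 to 2.22 in AG and 0.443 to 0.783 in MG, again with overlap. The log2 difference was -1.01 (exact p = 0.0173), opposite in sign to that of the share. Of the 4 scales examined, only this ratio passed the threshold in MG against AG for Rn18s-rs5. On the RPKM scale, which divides by all mapped reads, the difference between MG and AG was -0.83 for Tmem38b (exact p = 0.0541), -0.37 for Rn18s-rs5 (exact p = 0.422) and 0.044 for Lars2.

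**Figure D3:**
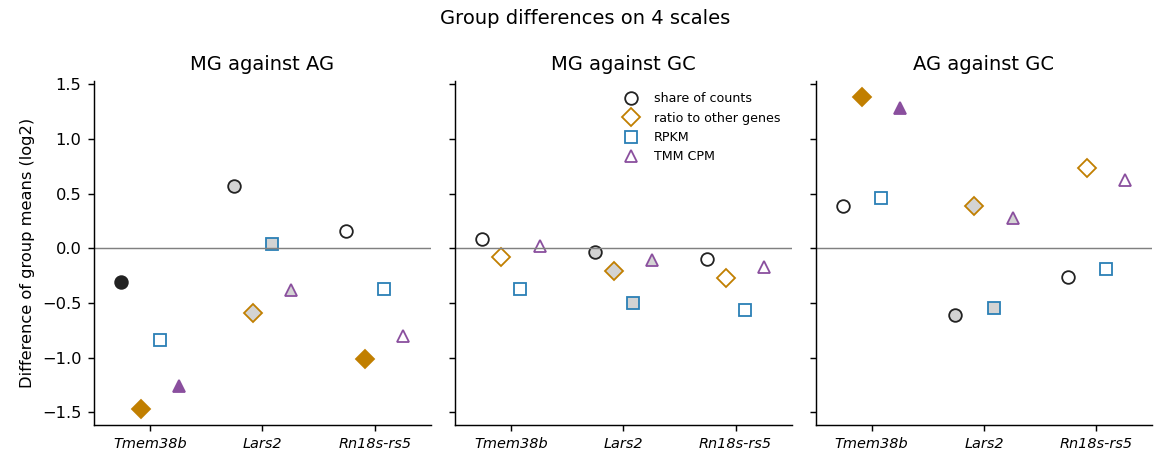
Difference of the group means (log2, y axis) of the 3 genes in each pair of groups on 4 scales, where TMM CPM is the count scaled by library size and by trimmed means of log ratios (TMM). Symbols filled in colour have an unadjusted exact permutation p under 0.05, open ones do not, and the grey-filled ones of Lars2 were not tested. For Lars2 and Rn18s-rs5 in MG against AG the share lies above 0 (0.57 and 0.16) and the ratio to other genes below it (-0.59 and -1.01).

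The same question was put to the whole table with the quasi-likelihood test of edgeR after TMM scaling, in 1 fit of all 17 libraries. For Tmem38b the log2 fold change was -1.07 (SE 0.46) for MG against AG, with an adjusted p of 0.314 over the 272 genes. For Rn18s-rs5 it was -0.87 (SE 0.41, adjusted p = 0.341) and for Lars2 the fitted value was -0.45 (SE 0.31). In AG against GC the 3 values were 0.98 (SE 0.48, adjusted p = 0.405) for Tmem38b, 0.71 (SE 0.43, adjusted p = 0.485) for Rn18s-rs5 and 0.35 (SE 0.32) for Lars2. In MG against GC they lay between -0.16 and -0.086, with an adjusted p of 0.994 for both Tmem38b and Rn18s-rs5. In this fit neither of these genes was called in any pair, beside 0% of the 272 genes in MG against AG, 0% in MG against GC and 1.47% (4 genes) in AG against GC. Tmem38b in MG against AG was called in 2 alternatives of the same test, at -0.98 (adjusted p = 0.0328) when all 6270 genes with at least 5 reads entered and at -1.28 (adjusted p = 0.0375) with the replicate number as a block. At an unadjusted p under 0.05, 36, 12 and 32 of the 272 genes passed in the same order of pairs. DESeq2 called 9, 0 and 8, the exact test of edgeR 3, 0 and 7, and limma on log2(RPKM + 1) 0, 0 and 0. Without TMM scaling the median log2 fold change of all genes in MG against AG was 1.21 in place of 0.17, and the fold change of Lars2 turned to 0.57 and that of Rn18s-rs5 to 0.073.

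Lars2 and Tmem38b were next set beside genes of related function. Of 16 mitochondrial aminoacyl-tRNA synthetases, 13 had any count, and 3 (Aars2, Cars2 and Sars2) were at 0 in every library. Lars2 had 88635 reads over all libraries, and the other 15 genes had 34 together. The 2 with most reads were Iars2, the isoleucyl enzyme, with 7, and Nars2, the asparaginyl enzyme, with 6. Per length, Lars2 had an RPKM of 62.5 to 418 (median 161), and the highest value of the other 15 in any library was 0.248. Lars2 was the only gene of these 16 that passed the expression filter.

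In a list of 17 genes of TRIC channels and calcium handling by the endoplasmic reticulum, 16 had a count and Jph1 was at 0. Tmem38b had 1624331 reads, against 442 for the other 16 genes. The calcium pumps Atp2a3 and Atp2a2 followed, with 159 and 107 reads, and Tmem38a, which encodes the related channel TRIC-A, had 3. The RPKM of Tmem38b was 1678 to 11292 (median 6089), while the highest value of any other gene of the list in any library was 1.74, that of the calcium-binding chaperone Calr. Atp2a3 was the only other gene of the list in the test, and 0 of the 2 were called in any pair, where at most 1.47% of all 272 genes were.

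**Figure D4:**
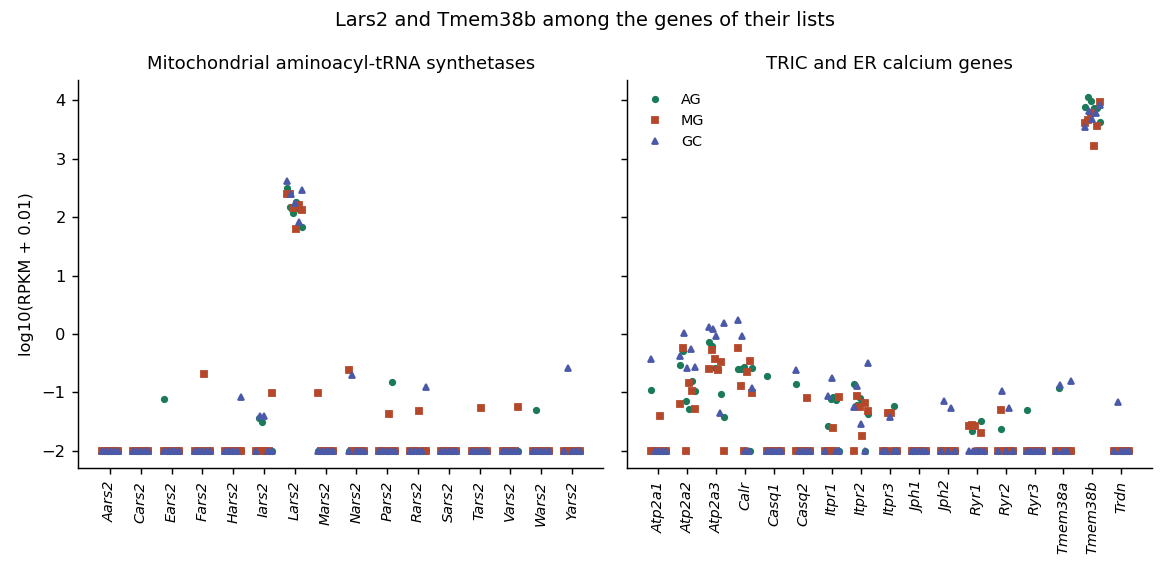
RPKM of each gene of the mitochondrial aminoacyl-tRNA synthetase list and of the TRIC and endoplasmic reticulum calcium list, as log10(RPKM + 0.01), with 1 point per library. Points at -2 are libraries listed at 0. Lars2 and Tmem38b lie above every other gene of their lists in all 17 libraries.

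Of 360 rRNA genes and related loci in the files, 3 had counts, 60 had a count of 0 but an RPKM above 0, and 297 were at 0 in both columns. The 3 were Rn18s-rs5, Gm15564 and Gm26917, and 0 of them were called in any pair, again beside at most 1.47% of the 272 genes. The gene n-R5s185 inside Tmem38b was at 0 in both columns in all 17 libraries. Per length, Rn18s-rs5 had the highest level of the list, with an RPKM of 2277 to 22958 (median 8542). It was followed by n-R5s194, with 1732 to 11534 (median 5965), mt-Rnr2, with 549 to 11035 (median 5448), n-R5-8s1, a 5.8S gene, with 789 to 7713 (median 3831), and mt-Rnr1, with 285 to 7453 (median 3665). The ranges of these 5 genes overlapped. Gm15564 lay far lower, at 45.5 to 418, and Gm26917 at 8.10 to 84.8.

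The mitochondrial rRNAs ranged widely within each group. mt-Rnr2 had an RPKM of 549 to 7997 in AG (median 4058), 1448 to 11035 in MG (median 5935) and 1140 to 10213 in GC (median 7203). MG exceeded AG by 0.96 on the log2 scale (exact permutation p = 0.253), and for mt-Rnr1 by 1.17 (exact p = 0.223), with overlapping ranges in both.

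The relation between genes was then followed over the 17 libraries on the log2 RPKM scale. All RPKM values of a library share the total of mapped reads as divisor. For comparison, the median Pearson's r of each gene with 55 other genes of at least 10 reads in every library was 0.21 for Tmem38b, 0.69 for Lars2 and 0.48 for Rn18s-rs5, and the upper quartile was 0.37, 0.79 and 0.60 in the same order. The permutation p-values test r against 0 and not against these values. In the family of 9 planned relations, Lars2 followed mt-Rnr2 with r = 0.80 and Spearman's rho = 0.78 (permutation p = 9e-05 and 0.00043, adjusted 0.000765 and 0.00364) and mt-Rnr1 with r = 0.78 and rho = 0.75 (permutation p = 0.00026 and 0.00081, adjusted 0.00078 and 0.00364). Both values of r lay close to the upper quartile of Lars2 with the other genes. Without the 2 libraries farthest from the median, GC 1 and MG 4, r was 0.79 and 0.77. Within MG, r reached 0.96 with mt-Rnr2 and 0.97 with mt-Rnr1 (exact permutation p = 0.00417 for each, n = 6), and within AG it was 0.67 and 0.64 (exact p = 0.157 and 0.199, n = 6).

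Rn18s-rs5 and Lars2 also rose and fell together over the libraries, with r = 0.79 and rho = 0.63 (permutation p = 0.00017 and 0.00774, adjusted 0.000765 and 0.0232), and r was 0.61 without GC 1 and MG 4. Rn18s-rs5 had an r of 0.36 with mt-Rnr2 and 0.32 with mt-Rnr1 (permutation p = 0.15 and 0.21), and neither passed the threshold. For Tmem38b, r was 0.14 with mt-Rnr2, 0.12 with mt-Rnr1, 0.19 with Lars2 and 0.36 with Rn18s-rs5 (permutation p = 0.597, 0.654, 0.458 and 0.16). Within AG, r of Tmem38b was 0.80 with mt-Rnr2 and 0.75 with mt-Rnr1 (exact permutation p = 0.0292 and 0.0556, n = 6, unadjusted), and within MG it was 0.36 and 0.38 (exact p = 0.49 and 0.464, n = 6). The relation of Tmem38b with Rn18s-rs5 rested on single libraries, since r was -0.031 without MG 4 and 0.59 without GC 1 (permutation p = 0.0147). On the share scale, where one gene's gain is the loss of another, Tmem38b ran against Rn18s-rs5 (r = -0.82) and against Lars2 (r = -0.77).

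After the matches in sequence were known, each gene was set beside one counted partner, and these 3 relations are given as a description. Tmem38b and n-R5s194 followed each other with r = 0.991 and rho = 0.988, and r stayed at 0.982 without AG 2 and MG 4, the libraries farthest from the median. Tmem38b had 28.0 to 35.0 reads for each read of n-R5s194 in all 17 libraries, with a coefficient of variation of 6.86%, while the reads of n-R5s194 ran from 626 to 6566. The median ratio was 30.04 in AG, 31.7 in MG and 31.7 in GC. The level of n-R5s194 was 0.90 lower in MG than in AG on the log2 scale, close to the -0.83 of Tmem38b in the same unit.

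Lars2 and Gm15564 had r = 0.909 and rho = 0.922, and r was 0.880 without GC 1 and MG 4. The ratio of their reads was looser, from 9.14 to 23.7, with a coefficient of variation of 27.4%. Rn18s-rs5 and the 5.8S gene n-R5-8s1 had r = 0.705 and rho = 0.542, and r was 0.488 without GC 1 and MG 4. Their reads stood in a ratio of 5.80 to 33.2, with a coefficient of variation of 54.0%.

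**Figure D5:**
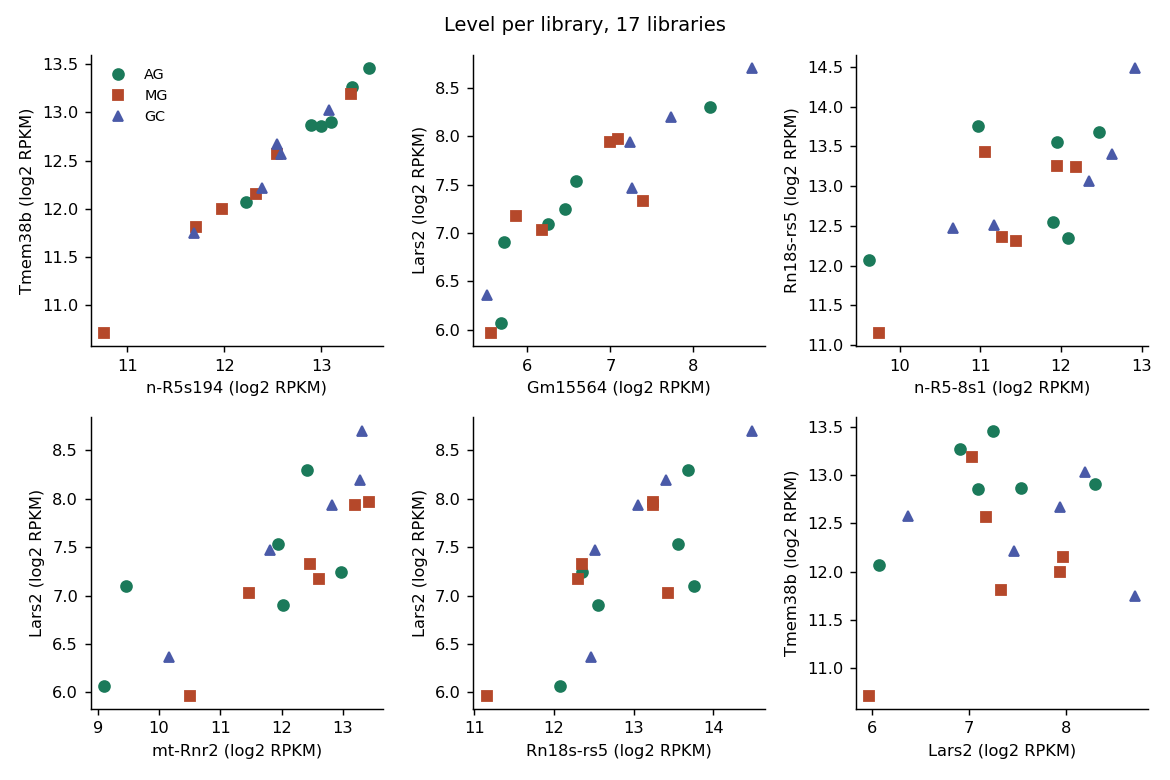
Level of each gene against a partner in log2 RPKM, with 1 point per library and the group as symbol (17 libraries). Tmem38b lies close to a line with n-R5s194 (r = 0.991), Lars2 is looser with Gm15564 (r = 0.909) and mt-Rnr2 (r = 0.80), and Tmem38b shows little relation to Lars2 (r = 0.19).

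Among the 55 genes with at least 10 reads in every library besides the gene itself, those whose share was most like that of Lars2 by Spearman's rho were Gm15564 (0.88), Hba-a1 (0.87) and Hbb-bs (0.87), the last 2 being globin chains of red cells. The median rho of Lars2 with the 55 genes was 0.56. For Rn18s-rs5 they were Polr2m (0.62), 9430076C15Rik (0.61) and Hbb-bt (0.60), with a median of 0.21. For Tmem38b no gene passed 0.059, the value of Vmp1, and Taf1d (0.049) and Trim39 (0.0098) followed. The median was -0.61. The 7 red cell markers together held 0.562% to 1.91% of the counts in AG, 0.160% to 1.999% in MG and 0.424% to 3.03% in GC, and all 7 had counts. By edgeR their median log2 fold change was -1.26 in MG against AG, 0.76 in AG against GC and -0.16 in MG against GC, beside 0.17, -0.21 and -0.0034 over the 272 genes, with 1 of the 7 called in AG against GC (1.47% of the 272 genes) and 0 in the other pairs (0% of the 272 genes in both). The called gene was Bpgm, an enzyme of red cells (1.85, adjusted p = 0.0332). These medians are on the TMM scale, as are the fold changes of the 3 genes, and the part of red cells in the levels of the 3 genes was not tested. Of the other markers, all 6 of platelets, 5 of 6 of leukocytes and all 7 of liver had a count, with summed shares of at most 0.528%, 0.0387% and 0.182% in any library. Cd3e, the T cell marker, was at 0. Of 5 skeletal muscle markers 4 had a count, together at most 0.0180%, and Mylpf was at 0.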

How the data were processed

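Plasma RNA of 17 mice was read with a small RNA kit as short paired reads. The authors' mapping, to mm10, and counting were run in CLC Genomics Workbench. They deposited, per gene, a read count without normalization, an RPKM value scaled to gene length and all mapped reads, and a TPM value, which was not used here. Strand, trimming and the counting of reads with several matches are not given in the sources used here, so genes with shared sequence are uncertain. The deposited count is 0 for 579 genes with an RPKM above 0. For n-R5s194, n-R5-8s1 and the mitochondrial rRNAs, levels are RPKM, and reads were recovered from RPKM and gene length.

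The genes and the lists were chosen with earlier results of these data known. Groups are those of the labels, and each library is 1 mouse. Shares, ratios and RPKM values, apart from those of Lars2, were compared between groups by exact two-sided permutation tests of mean log2 values, and correlations with 100000 permutations and Benjamini-Hochberg adjustment over 9 relations (Python 3.11.15, scipy 1.17.1). All genes were fitted with edgeR 4.0.16 (R 4.3.3, TMM, filterByExpr, 272 genes, quasi-likelihood test, no covariate, biological coefficient of variation 0.574), with called genes at an adjusted p under 0.05. Alternatives used DESeq2 1.42.0, limma 3.58.1 with pseudocounts of 1 and 0.1, other scalings and filters, the study's criterion (fold over 1.5 at an unadjusted p under 0.05), and each library left out in turn. Transcripts were searched with BLAST 2.17.0 against GENCODE M21. Genes are named as members, rRNA genes, the 3 genes most like each member, and the 2 list genes with most reads. One gene of the synthetase list is not reported here. Tmem38a, Calr, genes at 0, Gas5 and the partners were named after their values were seen. Libraries within a group differed beyond sampling noise (chi-square over degrees of freedom at least 5.46), so each was kept as a separate sample. This ratio covers counting error only. No sequencing batch or date is given in the sources used here.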

Additional observations from a re-analysis of the deposited data

Results flagged for a closer look

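In GC 1, Tmem38b took 24.7% of the counts, far below the nearest GC library at 54.2%. In the same library Rn18s-rs5 took 30.9%, far above the nearest at 13.8%. Both values stood further from their group than Dixon's critical value for 5 samples allows. A total of 24 sets of 1 measure in 1 group were examined in this way, and 2 were marked, where chance marks about 1 in 20. The shares of a library add up, so the 2 values are not independent. GC 1 also had the lowest count total (84657).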

How the results depend on the processing

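Of 98 alternative values of the share comparisons of Tmem38b and Rn18s-rs5, 75 kept their direction and side of the threshold. The values of Lars2 are a description. The denominator changed most. Against the genes that never passed 5% of a library, MG minus AG was -0.59 for Lars2 and -1.01 for Rn18s-rs5, AG minus GC was 1.39, 0.39 and 0.74 for Tmem38b, Lars2 and Rn18s-rs5, and MG minus GC was -0.082 for Tmem38b. With TMM CPM, MG minus AG was -0.38 for Lars2 and -0.80 for Rn18s-rs5, and AG minus GC was 1.28, 0.28 and 0.63. In RPKM, MG minus AG was -0.83 for Tmem38b (exact permutation p = 0.0541, past the threshold on the other 3 scales) and -0.37 for Rn18s-rs5, and MG minus GC was -0.38 for Tmem38b. The Mann-Whitney test lost the call of Tmem38b in MG against AG (-0.31). With 1 library left out, Tmem38b ran from -0.37 to -0.25 (MG minus AG), -0.16 to 0.19 (MG minus GC) and 0.15 to 0.49 (AG minus GC), Lars2 from 0.47 to 0.78, -0.31 to 0.17 and -0.88 to -0.44, and Rn18s-rs5 from -0.039 to 0.28 and -0.21 to 0.15 in the first 2 pairs.

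Among correlations, on the share scale r was -0.82 for Tmem38b with Rn18s-rs5 and -0.77 with Lars2. Without the 2 farthest libraries it was -0.15 for Tmem38b with Lars2, -0.16 with mt-Rnr1 and -0.15 with mt-Rnr2, and 0.49 for Rn18s-rs5 with n-R5-8s1. Within AG it was 0.73 for Rn18s-rs5 with Lars2, 0.80 for Tmem38b with mt-Rnr2, 0.43 for Rn18s-rs5 with n-R5-8s1, and 0.64 and 0.67 for Lars2 with mt-Rnr1 and mt-Rnr2. With 1 library left out, r ran from -0.031 to 0.59 for Tmem38b with Rn18s-rs5, from -0.17 to 0.37 with Lars2, from -0.067 to 0.23 with mt-Rnr1 and from -0.055 to 0.23 with mt-Rnr2, and from 0.22 to 0.56 and 0.26 to 0.57 for Rn18s-rs5 with mt-Rnr1 and mt-Rnr2.

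Genes called in MG against AG numbered 48 without TMM scaling, 3 with scaling by the genes under 5%, 9 by DESeq2, 3 by the exact test, 6 with all genes of at least 5 reads (Tmem38b among them, at -0.98) and 36 by the study's criterion. In MG against GC they were 10 with all genes of at least 5 reads and 12 by the study's criterion. In AG against GC they were 9 without TMM scaling, 8 by DESeq2, 7 by the exact test, 0 by limma with either pseudocount, 0 with all genes of at least 5 reads, 1 with only the pair in the fit and 32 by the study's criterion. With 1 library left out the counts ran from 0 to 10, 0 to 1 and 0 to 6. Fold changes turned in sign without TMM scaling (Tmem38b 0.033 in MG against GC, Lars2 0.57 and Rn18s-rs5 0.073 in MG against AG, -0.63 and -0.25 in AG against GC), with only the pair in the fit (Tmem38b 0.022 in MG against GC) and by limma (Lars2 0.044 with either pseudocount in MG against AG, -0.54 with either in AG against GC, Rn18s-rs5 -0.19). With 1 library left out, MG against GC ran from -0.50 to 0.54 for Tmem38b and from -0.47 to 0.054 for Rn18s-rs5. The cause of these changes was not tested, beyond the scaling itself.

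The replicate numbers were not used to pair the libraries in the main tests. Of 16 same-numbered pairs, 10 had r above 0.1 (range -0.58 to 0.80), and 6 of 17 libraries were closest to their own number. Number 1 had r of 0.77 (MG and AG), 0.80 (MG and GC) and 0.71 (AG and GC). Number 5 had -0.015, -0.12 and -0.43 in the same order. Whether the numbers mark a shared source was not tested. With the replicate block, 3 genes were called in MG against AG, among them Tmem38b (-1.28, adjusted p = 0.0375 by edgeR). The same-numbered pairs of MG and GC leave out MG 6, and over them the log2 difference of the share of Lars2 was 0.17, the value also found without MG 6, so the turn in sign comes from the library left out. The counts, from 84657 per library, left 272 genes for the tests.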
